A study of Mus musculus with 13 samples.

Results

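The Myc, Max and Mxd network was followed through its 6 members Mycn, Myc, Max, Mxd3, Mxd4 and Mxi1, taken as every probe set whose platform gene symbol is one of these names. They had 14 probe sets among the 34945 of the array that carry 1 gene symbol, and 12 of the 14 passed a filter on dim probe sets, against 21628 over the array. RNA of 13 mouse samples, each from a different mouse and all untreated, was hybridised to 1 array per sample. The groups were 6 primary medulloblastomas, which are malignant hindbrain tumours, of Ptch1(+/-) mice (Ptch1 MB). They were set against 3 wildtype samples of granule neuron precursor cells from the cerebellum at postnatal day 7 (P7 GNPC) and 4 wildtype samples of embryonic dorsal brainstem (E16.5 DBS). The labels give neither the age of the tumour mice nor whether the precursor cells were purified, and a Ctnnb1 tumour group named in the series design was not analysed here.

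Myc family proteins are transcription factors that bind DNA as dimers with Max, at sequences called E-boxes, and raise the expression of genes for growth, ribosome synthesis and cell division. Proteins of the Mxd family, to which Mxi1 also belongs, compete for Max and, as dimers with it, recruit the SIN3 histone deacetylase complex to repress the same kind of genes. In the developing cerebellum Mycn is a target of Sonic hedgehog signalling that keeps granule neuron precursors dividing, and Ptch1 is the receptor that restrains this pathway.

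The median intensity of an array was 91.3 to 117.5, and precision is limited by how many arrays there were. Values were tested with limma as log2(value + 18), a scale that understates the change of dim genes. A probe set counted as called when its log2 difference was at least 1, that is 2-fold, with an adjusted p (Benjamini-Hochberg, over all 21628 probe sets) under 0.05. Where a gene had several probe sets they are told apart by brightness, the mean log2 value over all samples. Of 8 granule neuron precursor genes, 2 were called higher in tumours than in GNPC and 7 than in DBS, and 0 lower in either (limma; 2 and 0 at an unadjusted p under 0.05). Among them Atoh1, which marks granule neuron precursors, averaged 8637 ± 1944 (SD, n = 6) in Ptch1 MB, 1048 ± 214 (SD, n = 3) in P7 GNPC and 102 ± 46.5 (SD, n = 4) in E16.5 DBS, while Neurod1 and Pax6 had log2 differences of -0.65 and -0.64 between tumours and GNPC and Zic1 and Zic2 of -0.03 and -0.08. The summed level of 10 Hox genes of the posterior hindbrain was 272.2 to 1141 in tumours, 299.8 to 435.6 in GNPC and 19325 to 27897 in DBS. Hoxa4 and Hoxc4 were below 18 in every tumour and GNPC sample. Markers of other cells differed between the groups, and several of these lists were highest in GNPC. The sum of 5 measured Purkinje cell genes was 480.8 to 12896 in tumours, against 31725 to 39156 in GNPC and 3503 to 4164 in DBS. Likewise 5 oligodendrocyte genes summed to 2125 to 14062 in tumours, against 18937 to 33823 in GNPC and 5511 to 7817 in DBS. Astrocyte genes summed to 5968 to 15221 in tumours, against 24727 to 25599 in GNPC and 8312 to 10400 in DBS. Endothelium genes had 1243 to 2413 in tumours, against 4344.5 to 4778 in GNPC and 3297 to 4340.5 in DBS. Meninges genes had 1523 to 2516 in tumours, against 8651 to 10120 in GNPC and 4601 to 7577 in DBS. Differentiated neuron genes summed to 15821 to 30737 in tumours, against 45165 to 50249 in GNPC and 73223 to 80960 in DBS. Microglia and macrophage genes summed to 4349 to 10920 in tumours, against 4631 to 5600 in GNPC and 4744 to 5251 in DBS, so the ranges overlapped. Of 7 tested, 5 were called higher in tumours than in either, beside 6.53% (GNPC) and 15.4% (DBS) of all genes. Csf1r and Cx3cr1 went the other way, averaging 2431 and 665 in tumours, against 2861 and 779 in GNPC and 3022 and 762.5 in DBS. The part of these cells in the differences below was not tested, and in such bulk samples fewer cells of a type and less RNA per cell cannot be told apart. The log2 ratio of 3' to 5' control signal, a sign of RNA quality, was 1.33 to 1.59 in tumours, 1.11 to 1.19 in GNPC and 1.23 to 2.43 in DBS, and its part was not tested either. No batch is given in the labels, and a batch that ran along with a group cannot be told apart from it.

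Mycn was highest in tumours, intermediate in GNPC and lowest in DBS in every sample. It encodes N-Myc, the Myc protein of embryonic and neural progenitors, on chromosome 12 (chr12:12936093-12941836, GRCm38.p6). On its brightest probe set the 6 tumours ran from 8083.6 to 10951.3 with a median of 10178. The GNPC samples had 2607.4, 3315.9 and 4033.7, and the DBS samples had 1172.9, 1222.5, 1086.7 and 1144.2. The 3 groups did not overlap: every tumour lay above every GNPC sample, and every GNPC sample above every DBS sample.

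The mean was 10022 ± 1070 (SD, n = 6) in Ptch1 MB, against 3319 ± 713 (SD, n = 3) in P7 GNPC. The log2 difference was 1.60 ± 0.13 SE, or 3.04-fold (limma adjusted p = 5.33e-07). Against E16.5 DBS, which averaged 1157 ± 56.7 (SD, n = 4), the tumours were higher by 3.09 ± 0.12, or 8.51-fold (limma adjusted p = 2.43e-11). GNPC were in turn higher than DBS by 1.49 ± 0.14, or 2.80-fold (limma adjusted p = 1.54e-06).

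The second Mycn probe set had the same order of groups. It averaged 331 ± 61.4 in tumours, against 152 ± 15.4 in GNPC and 57.2 ± 24.8 in DBS, and none of the groups overlapped. It was called in all 3 comparisons, with log2 differences of 1.02 (tumours over GNPC), 2.26 (tumours over DBS) and 1.24 (GNPC over DBS). The first of these stood close to the 2-fold minimum and fell short of it without tumour 2 (0.98), tumour 4 (0.96) or GNPC 1 (0.97). Without DBS 4 the last was 0.99 and also short. The dimmest Mycn probe set did not pass the filter and was not tested. Its values were 13.3 to 98 in tumours, 44.5 to 97.2 in GNPC and 43.3 to 145.5 in DBS, and the groups overlapped.

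The 250 bases before the annotated start of Mycn are shown because this gene had the largest difference between tumours and GNPC of the members, and because the letters of E2F sites lie there. E2F factors are transcription factors of the entry into S phase. The sequence comes from RefSeq (GRCm38.p6, chr12:12941837-12942086, minus strand) and is written 5' to 3' along the gene, with matched letters in capitals.
Mycn: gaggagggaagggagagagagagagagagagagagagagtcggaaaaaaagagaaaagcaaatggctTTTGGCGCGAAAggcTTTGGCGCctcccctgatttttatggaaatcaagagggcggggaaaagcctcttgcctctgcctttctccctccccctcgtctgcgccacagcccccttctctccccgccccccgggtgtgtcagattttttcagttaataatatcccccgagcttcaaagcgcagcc
Capitals mark 3 matches to E2F letters, searched on both strands as TTTGGCGC, TTTCCCGC, TTTCGCGC and TTTGCCGC. The first TTTGGCGC begins 183 bases before the start and the other 168 bases before it, while TTTCGCGC on the opposite strand overlaps the first. Of 32851 RefSeq promoter windows of 300 bases, 250 before and 50 after a start, 2.26% held any of these letters. The window of Mycn held neither the E-box CACGTG nor CACGCG, nor the Gli letters GACCACCCA, which 7.15%, 9.27% and 0.253% of windows held. Windows were given for 5 of the 6 members, and those of Mxd3 and Mxi1 held none of the letters searched. A match of letters is a description and shows no binding.

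**Figure D1:**
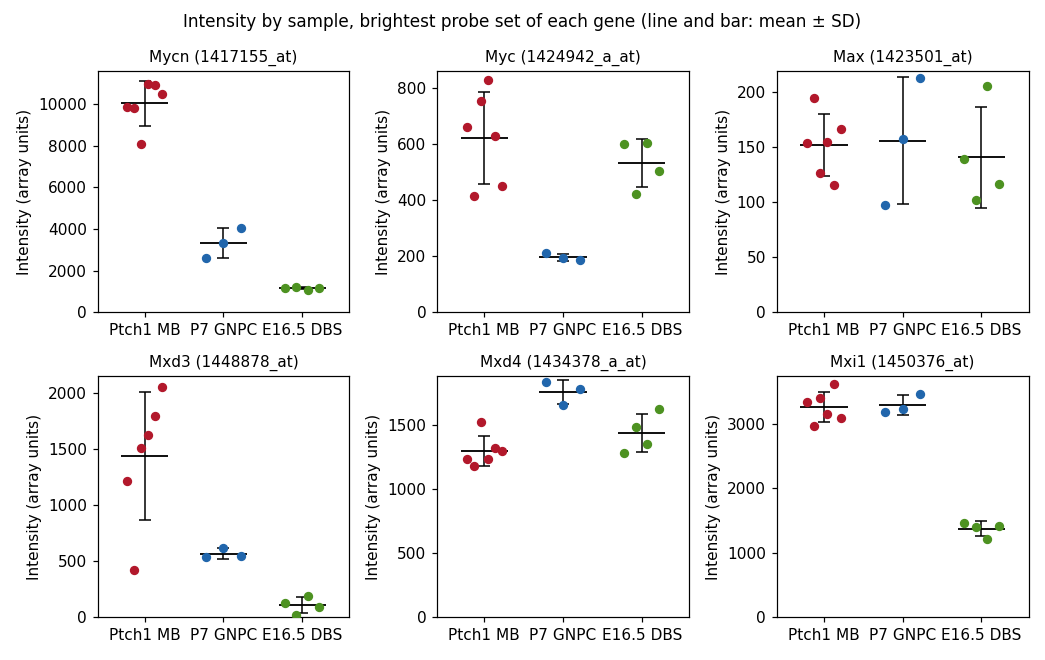
Intensity (array units, linear axis from 0) of the brightest probe set of each member in 6 Ptch1 MB, 3 P7 GNPC and 4 E16.5 DBS samples; points are samples, and the line and bar are the mean ± SD. Mycn separates all 3 groups, Myc is lowest in GNPC, Mxi1 is lowest in DBS, and 1 tumour at 425.4 lies below the GNPC samples for Mxd3.

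Myc, the founding member of the family, encodes the c-Myc protein (chr15:61985341-61990361). Its 1 probe set ran from 414 to 827.5 in the tumours with a median of 643.3, against 209.2, 194.2 and 184.9 in GNPC and 598.2, 421.5, 601 and 503.3 in DBS. Tumours and DBS overlapped widely, while every GNPC sample lay below every sample of both other groups. The mean was 621 ± 164 (SD, n = 6) in tumours and 196 ± 12.3 (SD, n = 3) in GNPC, a log2 difference of 1.54 ± 0.20 SE or 2.90-fold (limma adjusted p = 3.29e-05). DBS averaged 531 ± 86 (SD, n = 4), and tumours did not pass against it (log2 difference 0.19, 95% interval -0.21 to 0.59, limma adjusted p = 0.376). GNPC were lower than DBS by a log2 difference of -1.35 ± 0.22, or 2.54-fold (limma adjusted p = 0.00023).

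The 2 Myc genes therefore had different orders of groups: tumours, GNPC, DBS for Mycn, and tumours and DBS, with GNPC below them, for Myc. A factor common to a whole array cancels from their ratio within that array, apart from the effect of the pseudocount of 18. Quantile normalization could still change it. The log2 of Mycn over Myc averaged 4.01 ± 0.44 in tumours, against 3.94 ± 0.40 in GNPC and 1.11 ± 0.29 in DBS. Between tumours and GNPC this ratio differed by 0.07, less than its spread in either group, and between tumours and DBS it differed by 2.90. These ratios were not tested, and their absolute size means nothing, since signals of different probe sets cannot be set against each other.

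Max (chr12:76937269-76962323), the shared dimer partner, was dim. Its only probe set had 115.1 to 194.4 in tumours (median 153.8), against 97.5, 156.8 and 212.7 in GNPC and 138.8, 101.9, 205.5 and 116.1 in DBS. All 3 groups overlapped and no comparison passed. The log2 difference between tumours and GNPC was 0.01 with a 95% interval of -0.51 to 0.52 (limma adjusted p = 0.989), and between tumours and DBS 0.12 with an interval of -0.35 to 0.59 (limma adjusted p = 0.64). A change of Max of less than about these widths was thus not detectable on this probe set. Relative to Max in the same array, the log2 of Mycn was higher in tumours than in GNPC by 1.60 and than in DBS by 2.97.

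Mxd3 encodes Mad3, an Mxd protein made in dividing cells around S phase, unlike the Mxd proteins of differentiating cells (chr13:55325170-55329900). Its brightest probe set had 1214.2, 425.4, 1512.9, 1626, 1790.4 and 2049.7 in tumours 1 to 6, against 537.2, 622.1 and 544.5 in GNPC and 129.2, 25.5, 192.2 and 89.6 in DBS. Of the 6 tumours, 5 lay above every GNPC sample, and tumour 2 lay below all of them. All tumours and all GNPC samples lay above all DBS samples.

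Against DBS all 3 Mxd3 probe sets were called higher in tumours. On the brightest the mean was 1436 ± 568 (SD, n = 6) in tumours and 109 ± 69.9 (SD, n = 4) in DBS, 12-fold apart (log2 difference 3.58 ± 0.43 SE, limma adjusted p = 2.71e-06). The log2 differences on the second and the dimmest were 2.13 and 3.26. The last depends on the pseudocount, since the dimmest had only 9.6 to 41.8 in DBS: it was 4.00 with a pseudocount of 1 and 2.56 with 50. GNPC too were higher than DBS on all 3, by 2.41, 1.16 and 2.39 from the brightest to the dimmest.

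Against GNPC no Mxd3 probe set was called. The log2 difference was 1.17 ± 0.47 SE on the brightest (568 ± 47.1 in GNPC, limma adjusted p = 0.0534), 0.97 ± 0.29 on the second (limma adjusted p = 0.0125) and 0.87 ± 0.33 on the dimmest (limma adjusted p = 0.0411). The first missed the p threshold and the others the 2-fold minimum. These outcomes turned on tumour 2: without it the 3 differences were 1.48, 1.19 and 1.10 (limma adjusted p = 0.00424, 0.000219 and 0.00238), and all passed. The call on the brightest also appeared without DBS 2 (adjusted p = 0.024) or DBS 3 (adjusted p = 0.0438), which share in the estimate of the spread, and the second passed without tumour 1 (1.02), GNPC 2 (1.06) or GNPC 3 (1.01). All 3 probe sets passed when every array was set to 1 common median (1.41, 1.21 and 1.10) and after quantile normalization (1.22, 1.09 and 1.03).

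The low Mxd3 of tumour 2 was seen on each of its probe sets, with 316.6 on the second and 170.8 on the dimmest, each the lowest of the 6 tumours. The other tumours had 583.5 to 1012.5 and 326.9 to 569.5. Myc was also lowest in tumour 2, at 414 with tumour 6 next at 448.1, but Mycn was not: its 9815.8 in tumour 2 lay above the 8083.6 of tumour 3. The summed level of 14 measured genes of S phase and mitosis was 95214 in tumour 2 and 103161 to 123849 in the other 5. Of the marker sums, some were highest in tumour 2 and others not: differentiated neuron genes summed to 30737 against 15821 to 25868 in the other tumours, Purkinje cell genes to 12896 against 480.8 to 7553, and oligodendrocyte genes to 14062 against 2125 to 7046. Blood genes, at 109.8, were also highest there, but astrocyte genes (13934) were higher in tumour 3 (15221) and microglia genes (10048) in tumour 6 (10920). Endothelium genes (1345) and meninges genes (1561) lay within the range of the other tumours. The part of these cells in the Mxd3 values was not tested.

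**Figure D2:**
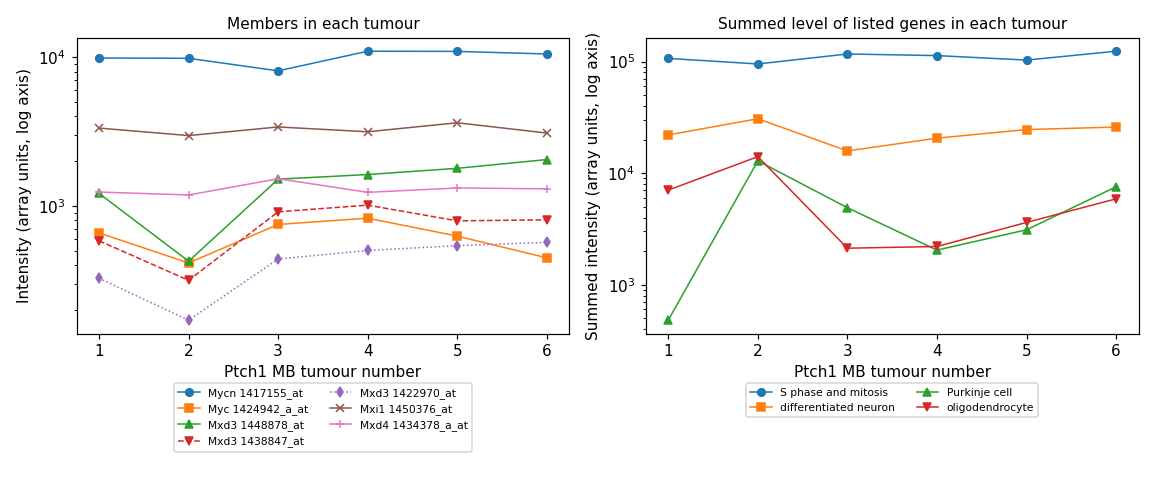
Left, intensity (log axis) of 7 member probe sets in each of the 6 Ptch1 MB tumours; right, summed intensity (log axis) of 4 gene lists in the same tumours. All 3 Mxd3 probe sets dip in tumour 2, where the sums of Purkinje cell and oligodendrocyte genes peak at 12896 and 14062, while Mycn stays between 8083.6 and 10951.3. Among lists not drawn, blood genes were highest in tumour 2, astrocyte genes in tumour 3 and microglia genes in tumour 6. The part of these cells in the Mxd3 values was not tested. Levels of different probe sets are not comparable.

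The members differed in how much they varied from tumour to tumour. The SD of the log2 values over the 6 tumours was 0.81 for Mxd3 on its brightest probe set, higher than that of 95.6% of probe sets tested, and 0.39 for Myc, higher than that of 72.1%. It was 0.16 for Mycn, 0.13 for Mxd4 and 0.10 for Mxi1 on their brightest probe sets, against a median of 0.27 over all probe sets tested. On the brightest probe sets the highest tumour was 4.82 times the lowest for Mxd3, 2.0 times for Myc, 1.35 times for Mycn and 1.22 times for Mxi1. The spread of Mxd3 rested on tumour 2: without it the highest was 1.69 times the lowest, below the 1.85 times of Myc, and the SD was 0.28, beside a median of 0.26 over all probe sets. This repeat was chosen after seeing the data.

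Mxd4 encodes an Mxd protein found mainly in differentiated cells (chr5:34176580-34187710), and its probe sets disagreed on whether and how far tumours differed from GNPC. On the brightest, tumours had 1185.1 to 1523.1 with a median of 1272, against 1837.9, 1659.5 and 1784.9 in GNPC and 1286.2, 1489.7, 1358.5 and 1625.2 in DBS. Every tumour was below every GNPC sample, and tumours overlapped DBS. The mean was 1301 ± 119 (SD, n = 6) in tumours and 1761 ± 91.6 (SD, n = 3) in GNPC, and the log2 difference of -0.43 ± 0.11 SE (limma adjusted p = 0.00541) was short of the 2-fold minimum. The second probe set had 188.1 to 242.2 in tumours, against 566.5, 483 and 471.2 in GNPC and 285.9, 196.8, 265.8 and 278.8 in DBS. There the tumours were called lower than GNPC, by -1.18 ± 0.14 or 2.27-fold (limma adjusted p = 1.62e-05), though with arrays scaled to the same median the difference of -0.95 was short of the minimum.

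Against DBS, tumours were not called on any Mxd4 probe set (log2 differences -0.14, -0.24 and 0.46). Nor were GNPC, with 0.29 on the brightest (limma adjusted p = 0.0658), and with 0.94 on the second, past the p threshold (limma adjusted p = 0.000251) but short of 2-fold. The third probe set had 83.9 to 138.2 in tumours and 101 to 142.2 in GNPC, and these groups overlapped. Its log2 difference between tumours and GNPC was -0.04 (limma adjusted p = 0.875). For GNPC over DBS it was 0.50 (limma adjusted p = 0.0597). The dimmest, with 48.7 to 121.2 over all 13 samples, did not pass the filter. The 250 bases before the start of Mxd4 are shown because they hold an E-box (RefSeq, GRCm38.p6, chr5:34187711-34187960, minus strand, 5' to 3').
Mxd4: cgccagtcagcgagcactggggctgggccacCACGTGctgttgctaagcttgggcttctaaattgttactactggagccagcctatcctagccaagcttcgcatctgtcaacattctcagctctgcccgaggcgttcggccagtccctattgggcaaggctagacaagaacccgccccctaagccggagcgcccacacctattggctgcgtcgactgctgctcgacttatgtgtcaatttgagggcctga
Capitals mark the E-box CACGTG, which begins 219 bases before the start and reads the same on both strands. The window of Max held 1 CACGTG as well, across its annotated start, and those of the other 3 members with a window held none.

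Mxi1 encodes a repressor of the Mxd family (chr19:53310128-53373293), and its values in tumours and GNPC lay within the same range, above those in DBS. Its brightest probe set had 2970.2 to 3620.9 in tumours with a median of 3243, against 3181.1, 3225.8 and 3466.7 in GNPC and 1461.8, 1405.4, 1208.2 and 1422.6 in DBS. Tumours and GNPC overlapped, and DBS lay below both. The means were 3260 ± 236 (SD, n = 6) in tumours, 3291 ± 154 (SD, n = 3) in GNPC and 1375 ± 113 (SD, n = 4) in DBS. Tumours were 2.36-fold above DBS (log2 difference 1.24 ± 0.09 SE, limma adjusted p = 1.36e-08) and GNPC 2.38-fold (1.25 ± 0.11, limma adjusted p = 5.6e-07). Between tumours and GNPC the log2 difference was -0.02 with a 95% interval of -0.22 to 0.19 (limma adjusted p = 0.911), and it lay between -0.11 and 0.23 over the other ways of processing that kept all samples. The dimmer probe set gave the same calls, with 129 ± 20.7 in tumours, 152 ± 4.44 in GNPC and 35.9 ± 21.2 in DBS. Relative to Mxi1 in the same array, the log2 of Mycn was higher in tumours by 1.62 than in GNPC and by 1.85 than in DBS, and between GNPC and DBS it differed by 0.23.

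**Figure D3:**
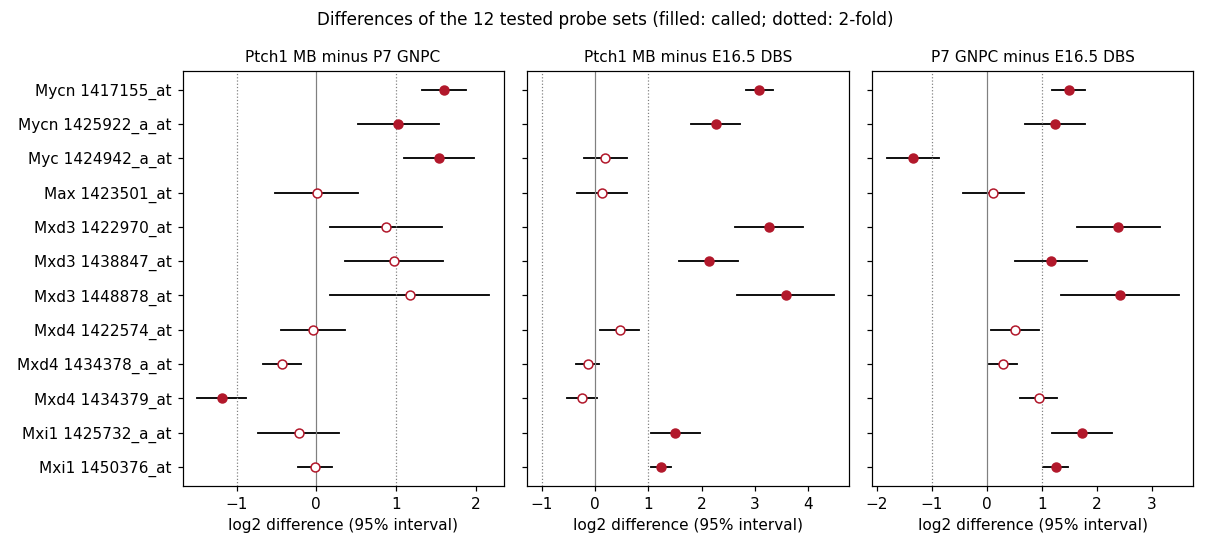
Log2 difference (point) and its 95% interval (line) from limma for the 12 tested member probe sets in 3 comparisons; filled points are called and dotted lines mark 2-fold. Both Mycn probe sets are called in every comparison, and the 3 of Mxd3 are called in tumours against E16.5 DBS and not against P7 GNPC.

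Counted over probe sets, 3 of the 12 were called higher and 1 lower in tumours than in GNPC, where 5.87% of all 21628 were called higher and 12.6% lower. By genes, that is by the brightest probe set, 2 of the 6 members were called, beside 20.6% of 12270 genes. Against DBS 7 of 12 were called higher, beside 16.1%, and 0 lower, beside 18.6% (limma; 0 lower also at an unadjusted p under 0.05), and by genes 3 of 6, beside 36.2%. Between GNPC and DBS 7 were called higher, beside 9.11%, and 1 lower, beside 8.11%, and by genes 4 of 6, beside 18.3%. Probe sets of 1 gene are not independent, and each pair of comparisons shares the samples of 1 group. Groups did not overlap for 5, 7 and 11 of the 12 in these comparisons, beside 41.3%, 53.3% and 53.1% of all probe sets. In either direction 18.5%, 34.7% and 17.2% of all probe sets were called. Without tumour 2 the counts of called member probe sets were 6, 7 and 8. With no fold minimum they were 7, 8 and 9, beside 45.1%, 68% and 41.5% of all probe sets.

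A further 6 genes of the Myc, Max and Mlx network passed the filter, and among these Mycl was called in tumours. Mycl, which encodes L-Myc, had 712.1 to 1257 in tumours (850 ± 201, SD, n = 6), against 202, 181 and 244.8 in GNPC (209 ± 32.5, SD, n = 3) and 159.7, 297.2, 159.2 and 177.4 in DBS (198 ± 66.4, SD, n = 4). Every tumour was above every normal sample, by 3.78-fold over GNPC (limma adjusted p = 6.24e-06) and 4.06-fold over DBS (limma adjusted p = 2.26e-07), and GNPC and DBS did not pass against each other (log2 difference 0.11, adjusted p = 0.736). These Mycl values are of its brightest probe set, and its others did not pass the filter and were not tested. Of these, 1 had 18.1 to 46.4 in tumours, against 30.5 to 36.4 in GNPC and 7.5 to 39.1 in DBS. The other had 35.1 to 60.1 in tumours, against 20.8 to 23.3 in GNPC and 11.1 to 35.2 in DBS. On their brightest probe sets all 3 Myc genes thus had their highest mean in tumours, though Myc did not pass against DBS.

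Mga, a large Max partner with a T-box, was not called on its brightest probe set (log2 difference 0.19 against GNPC and 0.41 against DBS). On another it was called higher in tumours, with 813 ± 127 against 379 ± 112 in GNPC (1.10, limma adjusted p = 0.000486) and 332 ± 67.2 in DBS (1.25, limma adjusted p = 2.36e-05). Which of these reflects Mga transcripts was not tested. The repressors Mnt and Mxd1 had log2 differences of -0.04 and -0.03 from GNPC and of -0.37 and -0.34 from DBS. Mlx, the Max-like factor, and its partner Mlxip had -0.27 and -0.55 from GNPC and 0.07 and -0.21 from DBS, and Mlxip passed the p threshold against GNPC (limma adjusted p = 0.0045) but not 2-fold. Mlxipl and Mycs did not pass the filter. The list's median was -0.04 against GNPC and -0.07 against DBS, beside -0.03 and 0 over all genes, with 1 of 6 called higher and 0 lower in each comparison (limma; 1 and 2 lower at an unadjusted p under 0.05).

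At the 2-fold minimum, partners of the network were called higher than in GNPC at close to the share of all genes. Of 16 measured genes of the SIN3 corepressor complex, 1 was called higher in tumours than in GNPC and 5 than in DBS, and 0 lower in either (limma; 0 and 1 at an unadjusted p under 0.05). Sap30, a subunit of the complex, had 2290 ± 245 in tumours, against 1149 ± 259 in GNPC (2.01-fold) and 538 ± 42.4 in DBS (4.14-fold), and it lost its call against GNPC after quantile normalization, when 0 genes of the list were called. The histone deacetylase Hdac1 was 2.72-fold and the scaffold Sin3b 2.40-fold above DBS. Of 17 Myc coactivator genes, with the cofactor Zbtb17, 1 was called higher than in GNPC and 3 than in DBS, and 0 lower (limma; 1 at an unadjusted p under 0.05 in each). The ATPase Ruvbl1 was 2.17-fold above GNPC and 2.95-fold above DBS, its partner Ruvbl2 was 3.05-fold above DBS, and Actl6a, an actin-related chromatin subunit, 5.42-fold above DBS. Over all 12270 genes, 6.53% were called higher and 14.1% lower in tumours than in GNPC, and 15.4% higher and 20.8% lower than in DBS. Median log2 differences from GNPC and DBS were 0.40 and 0.63 for the SIN3 genes and 0.07 and 0.37 for the coactivators. Over all genes they were -0.03 and 0. At an unadjusted p under 0.05 in limma, 8 and 12 SIN3 genes and 6 and 9 coactivators were higher, beside 3195 and 4448 of all genes.

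Among 19 genes that modify or degrade Myc proteins, 4 were called higher and 1 lower in tumours than in GNPC, and 5 higher and 2 lower than in DBS. The list's median log2 difference was 0.25 against GNPC and 0.31 against DBS, beside -0.03 and 0 over all genes. At an unadjusted p under 0.05 in limma, 9 were higher and 6 lower than in GNPC, and 9 higher and 5 lower than in DBS. The genes named below were picked by size of difference, not by their effect on Myc proteins. The gene lower than in GNPC was Fbxw7, the ubiquitin ligase subunit that marks Myc and N-Myc for degradation, with 994 ± 101 in tumours against 3006 ± 280 in GNPC (2.99-fold, limma adjusted p = 4.1e-07). Aurka, the mitotic kinase that binds and stabilises N-Myc, had 1830 ± 163 in tumours, against 731 ± 136 in GNPC (2.49-fold, limma adjusted p = 6.76e-05) and 131 ± 45.4 in DBS (12.8-fold, limma adjusted p = 1.8e-10). Cip2a, an inhibitor of the phosphatase that destabilises Myc, was 2.82-fold above GNPC and 13.5-fold above DBS. Plk1, another mitotic kinase, was 8.25-fold above DBS. Aurka, Cip2a and Plk1 are also genes of dividing cells.

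Of 24 genes known as Myc targets of the nucleolus and ribosome synthesis, 9 were called higher in tumours than in GNPC and 16 than in DBS, and 0 lower in either (limma; 0 at an unadjusted p under 0.05 in both). Their median log2 difference was 0.89 against GNPC and 1.29 against DBS, beside -0.03 and 0 over all genes. Polr1b, a subunit of RNA polymerase I, had 982 ± 313 in tumours against 245 ± 92.6 in GNPC (3.86-fold). Ppan, a ribosome assembly factor, had 1128 ± 119 in tumours, against 417 ± 45 in GNPC (2.63-fold) and 266 ± 87.5 in DBS (4.19-fold). The small nucleolar RNA proteins Dkc1, at 2.61-fold over GNPC, and Nhp2 and Nop58, at 3.73-fold and 3.59-fold over DBS, were further examples. With arrays scaled to the same median, which moves the median of all probe sets in this comparison to 0.20, against -0.03, 14 of the 24 were called. Between GNPC and DBS 1 of the 24 was called, upward, beside 8.72% of all genes called higher. At an unadjusted p under 0.05 in limma, 12 were higher and 0 lower, beside 3349 and 3002 of 12270 genes. Their median was 0.34, beside 0.04 over all genes.

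Of 30 Myc targets of metabolism, translation and growth, 7 were called higher and 1 lower than in GNPC, and 18 higher and 0 lower than in DBS (limma; 2 lower at an unadjusted p under 0.05). Hk2, the hexokinase, had 7300 ± 2413 in tumours, against 622 ± 165 in GNPC (11.1-fold) and 358 ± 58.9 in DBS (18.7-fold). The mitochondrial folate enzyme Mthfd2 was 5.63-fold above GNPC. Shmt2, which feeds the same pathway from serine, was 3.21-fold above GNPC and 8.66-fold above DBS. The cyclin Ccnd2 was 10.5-fold above DBS. The medians were 0.65 and 1.21. Between GNPC and DBS 9 of the 30 were called higher and 0 lower, with a median of 0.52. At an unadjusted p under 0.05 in limma, 18 were higher and 4 lower.

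Genes known to be repressed by Myc moved in both directions. Of 14, 4 were called higher and 3 lower than in GNPC, and 4 higher and 4 lower than in DBS. Their median log2 difference was nevertheless upward, at 0.53 against GNPC and 0.82 against DBS, beside -0.03 and 0 over all genes. At an unadjusted p under 0.05 in limma, 6 were higher and 4 lower than in GNPC, and 8 higher and 6 lower than in DBS. With arrays scaled to the same median the split against GNPC was 6 higher to 1 lower. Among these, the cyclin kinase inhibitor Cdkn2b had 556 ± 269 in tumours against 59.1 ± 23.6 in GNPC (7.06-fold), and Cdkn1b had 2665 ± 459 in tumours against 253 ± 36.1 in DBS (9.87-fold). The transcription factor Cebpd was 3.42-fold above GNPC. Ndrg4, a gene of neurons, was 3.86-fold below GNPC and 5.83-fold below DBS, and its relative Ndrg1 6.20-fold below DBS.

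Genes of S phase and mitosis, with which Mxd3 is known to be expressed, were called higher than in GNPC for 13 of 14 and than in DBS for 14 of 14, with medians of 1.25 and 3.72, and 12 of 14 were called higher in GNPC than in DBS, where 8.72% of all genes were called higher and 9.54% lower. The licensing factor Cdc6 had 1770 ± 257 in tumours, against 465 ± 99.1 in GNPC (3.73-fold) and 88.7 ± 16.3 in DBS (16.8-fold). Of the other licensing genes, Mcm2 and Mcm6 were 4.26-fold and 2.95-fold above GNPC and Mcm3 15.2-fold above DBS, and the mitotic checkpoint kinase Bub1 was 18.6-fold above DBS.

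**Figure D4:**
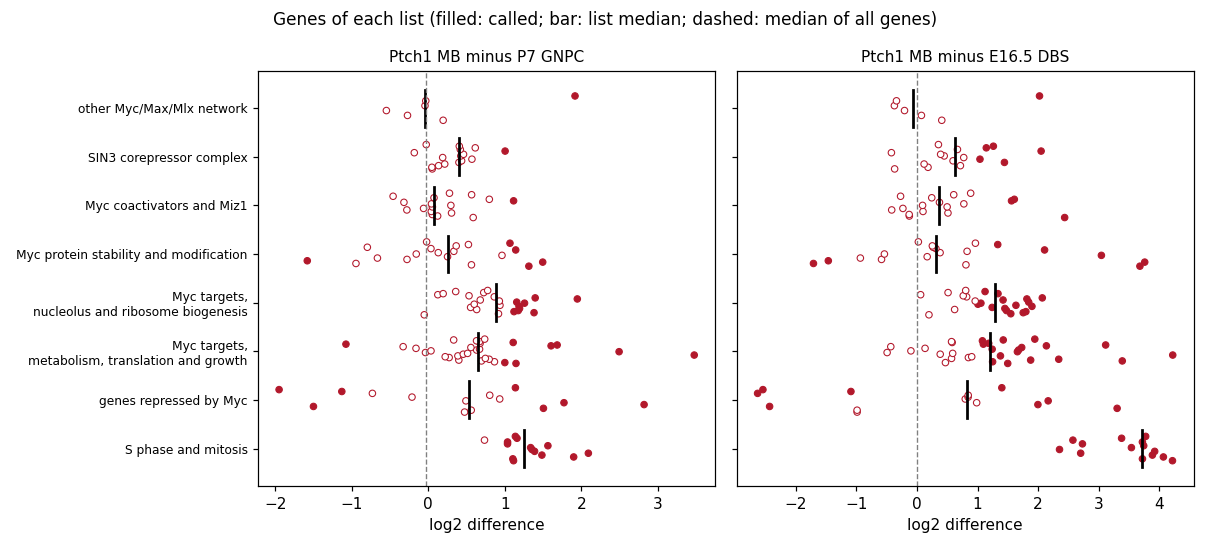
Log2 difference of each measured gene (points; filled where called) in 8 gene lists, tumours minus GNPC at left and tumours minus DBS at right; the black bar is the list's median and the dashed line the median of all 12270 genes. The nucleolar target list has its median at 0.89 and 1.29, and the S phase and mitosis list at 1.25 and 3.72.

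The genes most like each member were found by Pearson's r of log2 values across the 13 samples, over 12264 other genes. Such an r mostly reflects the 3 group means and is a description. Closest to Mycn were Casp2 (r = 0.99), a caspase, then Ccdc43 (0.99) and Rad18 (0.99), a ubiquitin ligase of DNA damage tolerance. Casp2 averaged 4611 in tumours, 2078 in GNPC and 962 in DBS. Closest to Myc were Smoc1 (0.97), a matricellular protein, Pdzrn4 (0.97) and Tmem132e (0.93), and Pdzrn4 averaged 1118 in tumours, 109 in GNPC and 731 in DBS. Mxd3 was closest to Mbd3 (0.99), a subunit of a deacetylase complex, Ift43 (0.98) and Polr2g (0.98). Mxi1 was closest to Rnmt (0.98), the mRNA cap methyltransferase, Zbtb18 (0.98), a transcriptional repressor, and Nsun3 (0.98). Mxd4 was closest to Unc45b (0.91), Elf5 (0.90) and Mir22hg (0.88), and the dim Max to Abi1 (0.80), Dusp18 (0.77) and Tapbp (0.75). Among the members themselves, Mycn had r = 0.89 with Mxd3, 0.86 with Mxi1 and 0.21 with Myc, and Myc had -0.73 with Mxd4.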

How the data were processed

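RNA of 13 samples was hybridised to 1 Affymetrix array per sample. The values the authors deposited are linear intensities; the submitters' processing notes name MAS5 without saying what it did. Once 2% of values are trimmed from both ends of each array, the mean over the 13 arrays rounds to 500. Samples were grouped by the source names in the labels, and replicate numbers were given in accession order and do not pair samples. Gene symbols came from the platform annotation, with 0 changed through a current gene table. Probe sets with 1 symbol brighter than the median of their array on 3 or more of 13 arrays were kept. A gene's brightest probe set is that with the highest mean log2 value.

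A pseudocount of 18, the 20th percentile of all values, was added before taking log2, and 1 limma model (version 3.58.1, R 4.3.3) was fitted with a mean per group, 10 residual and 4.76 prior degrees of freedom, and an intensity trend. It was tested on simulated data. Alternatives changed the scaling, pseudocount, filter, probe sets, spread model, samples in the fit, array weights or fold minimum, or left out 1 sample. Members, gene lists and tests were chosen with earlier results of these data known, so adjusted p-values are over all probe sets and lists have no test of their own. Named genes are all members and network genes, and in each other list the 3 called genes with the largest difference in each tumour comparison, or the 1 largest where none was called, and the 3 genes most like each member.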

Additional observations from a re-analysis of the deposited data

Results flagged for a closer look

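For the members, 3 results lay far from the rest of their group, out of 28 groups of 4 or 6 samples examined, where chance alone marks about 1 in 20. Mxd3 on its brightest probe set was 425.4 in tumour 2, with the other tumours at 1214.2 to 2049.7. Mycn on its brightest probe set was 8083.6 in tumour 3, still above every normal sample. Mxd4 on a dim probe set was 91.4 in DBS 2, with the other DBS samples at 69.4 to 71.3.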

How the results depend on the processing

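Of 468 recomputed differences of the members' brightest probe sets (18 differences under 13 alternatives and with each of 13 samples left out), 459 kept their side of the threshold, and no called difference changed sign. Uncalled ones near 0 did change sign, for Max and Mxi1 between tumours and GNPC and for Max between GNPC and DBS. Those that crossed the threshold were Mxd3 between tumours and GNPC and Mxd4 (-0.43), called once the fold minimum was dropped. Mxd3 (1.17) became a call with arrays scaled to the same median (1.41), quantile normalization (1.22), a pseudocount of 50 (1.13), only the compared groups in the fit (1.17), array weights (1.24), and without tumour 2 (1.48), DBS 2 (1.17) or DBS 3 (1.17). It stayed uncalled in the other 10 of 13 fits with a sample left out, and over all 13 the difference ran from 1.04 to 1.48. Of 447 for the other probe sets, 426 kept their side, 14 became calls and 7 lost theirs, among them the second Mycn probe set with a pseudocount of 50 (0.90 against GNPC, and 0.94 for GNPC over DBS). The 4 member probe sets called between tumours and GNPC became 7 after quantile normalization, 7 with no fold minimum and 2 with 1 probe set per gene, and 3 to 6 with a sample left out. With 1 probe set per gene, 3 were called for tumours over DBS and 4 for GNPC over DBS, as fewer probe sets were then tested. The array-wide counts were 4003, 7495 and 3725 for tumours against GNPC, tumours against DBS and GNPC against DBS. They became 2534, 4434 and 2239 with 1 probe set per gene, and 9760, 14698 and 8970 with no fold minimum. At 1 common array median, 50.3% of calls between tumours and GNPC were higher, against 31.7%, and 53.0% against 46.5% between tumours and DBS. No paired analysis was run, since each sample came from a different mouse and the labels pair none of them. Signals near the array median, those of Max among them, limit what small differences can show.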
